A study of Mus musculus with 6 samples.

Results

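The hypoxia response and glycolysis genes are 34 genes, chosen by symbol, of the 55487 genes in the deposited tables. They take in glucose entry, the glycolytic enzymes, lactate handling, oxygen sensing and genes induced in low oxygen. Each was described in all 6 libraries of mouse primitive macrophages, the embryo's earliest macrophages, grown here from embryonic stem cells. Of these, 3 were Ts1Cje, from stem cells of a mouse model of Down syndrome with an extra copy of the distal end of chromosome 16, and 3 were wild-type (WT). Of the 34 genes, 0 lie on chromosome 16. Both genotypes were differentiated for 12 days with M-CSF, IL-3, SCF, VEGF, FGF2, BMP-4 and activin A. VEGF was thus an added factor in both genotypes, while Vegfa below is the cells' own transcript. The labels give no oxygen level for the differentiation cultures. The labels mark replicates as lots and do not say whether these were separate stem cell lines or separate differentiations, so p-values measure only the spread between these libraries, which may be technical.

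Cells meet low oxygen through the hypoxia-inducible factors (HIFs). In oxygen, prolyl hydroxylases of the Egln family mark the HIF-1α protein, product of Hif1a, for destruction. In low oxygen it accumulates, pairs with ARNT and binds a short DNA core, the hypoxia response element. Its targets include most genes of glycolysis, which splits glucose to pyruvate, and lactate dehydrogenase, which turns pyruvate to lactate. Macrophages also use this pathway when activated. HIF-1α is controlled largely at the level of protein, which RNA sequencing does not measure.

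The promoters of 5 members are shown because 4 of them (Egln3, Ankrd37, Ddit4 and Bnip3) were far higher in 1 library, WT replicate 2, than in the others, and because Ldha had 7 matches to the core. The windows run from 250 bases before the start to 50 bases after it and come from RefSeq on build GRCm38.p6. They are chr12:54203825-54204124 (minus strand) for Egln3, chr8:45999801-46000100 (minus strand) for Ankrd37, chr10:59951721-59952020 (minus strand) for Ddit4, chr7:138909457-138909756 (minus strand) for Bnip3 and chr7:46845554-46845853 (plus strand) for Ldha. Capitals mark the core, ACGTG or GCGTG, on either strand, and overlapping matches run together.
Egln3: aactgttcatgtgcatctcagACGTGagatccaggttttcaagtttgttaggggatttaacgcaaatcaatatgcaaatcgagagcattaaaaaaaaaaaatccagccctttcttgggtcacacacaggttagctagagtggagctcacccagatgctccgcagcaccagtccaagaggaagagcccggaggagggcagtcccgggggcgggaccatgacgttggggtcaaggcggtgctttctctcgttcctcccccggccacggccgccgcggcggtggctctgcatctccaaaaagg
Ankrd37: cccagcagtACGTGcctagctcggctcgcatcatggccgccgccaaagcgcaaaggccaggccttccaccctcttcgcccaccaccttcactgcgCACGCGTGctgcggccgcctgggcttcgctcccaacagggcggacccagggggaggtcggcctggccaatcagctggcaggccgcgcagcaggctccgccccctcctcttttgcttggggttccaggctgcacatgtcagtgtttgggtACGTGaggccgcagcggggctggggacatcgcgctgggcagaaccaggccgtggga
Ddit4: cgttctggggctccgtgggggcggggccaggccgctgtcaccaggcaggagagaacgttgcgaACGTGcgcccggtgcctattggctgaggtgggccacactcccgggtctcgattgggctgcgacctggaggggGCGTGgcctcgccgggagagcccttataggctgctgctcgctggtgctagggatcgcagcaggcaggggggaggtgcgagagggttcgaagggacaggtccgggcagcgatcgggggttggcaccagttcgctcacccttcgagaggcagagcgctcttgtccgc
Bnip3: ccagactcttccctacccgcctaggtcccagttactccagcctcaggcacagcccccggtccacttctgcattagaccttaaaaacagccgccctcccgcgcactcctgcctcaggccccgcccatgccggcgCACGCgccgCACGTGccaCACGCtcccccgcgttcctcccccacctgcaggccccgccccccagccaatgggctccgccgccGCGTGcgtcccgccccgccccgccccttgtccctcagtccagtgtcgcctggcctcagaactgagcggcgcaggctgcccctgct
Ldha: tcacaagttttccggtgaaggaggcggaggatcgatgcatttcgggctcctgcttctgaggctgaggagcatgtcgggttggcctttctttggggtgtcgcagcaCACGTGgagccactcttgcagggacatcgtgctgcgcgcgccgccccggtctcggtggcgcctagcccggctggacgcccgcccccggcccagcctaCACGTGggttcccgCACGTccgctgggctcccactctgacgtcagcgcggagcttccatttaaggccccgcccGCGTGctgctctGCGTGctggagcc

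Egln3 had 1 match, Ddit4 2, Ankrd37 4, Bnip3 5 and Ldha 7, where CACGTG counts on both strands. Ldha has another window, with 2 matches and no ACGTG, and the window with the most matches is shown. A window was in the sequence table for 31 of the 34 members (not for Bhlhe40, Ndrg1 and Slc2a3). At least 1 window held the core in 29 of the 31 (93.5%), against 46.7% of all 27025 genes. The form ACGTG alone was in 23 of the 31 (74.2%), against 21.8% of all genes. Some genes have more than 1 window, which raises such a count. By window, 36 of 46 member windows held the core (78.3%), against 43.8% of all 32851 windows. ACGTG alone was in 26 of the 46 (56.5%), against 19.6%. Tpi1 and Gpi1 had no match in their windows. The 27025 genes take in genes outside the 13821 tested here. Both forms of the core contain CG, and no comparison was made with promoters matched for CG or for expression. These shares therefore cannot show that the core is particular to hypoxia genes. A match describes letters and does not show that a factor binds there.

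Total counts were 25484294 to 32658148 per library, with 17586 to 18935 genes detected. WT replicate 1 stood apart. Its score was -88.2 on a leading principal component with 37.8% of the variance, where the other 5 libraries scored from -18.7 to 38.7. Its mitochondrial share was 1.32%, against 0.885% to 0.972% elsewhere. The 19 genes of the G2/M cell cycle list summed to 1437, 1130 and 770 CPM in Ts1Cje replicates 1 to 3, against 183, 1275 and 1328 CPM in WT replicates 1 to 3. CPM, read counts scaled to library size with TMM factors, are used between libraries. The deposited TPM, which are also divided by gene length, are used between genes. The 10 macrophage markers summed to 9302, 11610 and 18010 CPM in Ts1Cje replicates 1 to 3, against 17962, 10719 and 7994 CPM in WT replicates 1 to 3. Most of the spread of that sum was in Lyz2, at 3249, 6139 and 11565 CPM in Ts1Cje libraries, against 10372, 4470 and 2298 CPM in WT libraries. Cd68 spread less, at 2513, 2424 and 3132 CPM in Ts1Cje libraries, against 2794, 2330 and 2553 CPM in WT libraries. Not all other markers were as level. Csf1r was at 1088, 1136 and 1119 CPM in Ts1Cje libraries, against 2435, 1528 and 1066 CPM in WT libraries. Mertk and Cx3cr1 also fell from WT replicate 1 to 3. Itgam was instead lowest in WT replicate 1, at 113, 64.7 and 58.4 CPM in Ts1Cje libraries, against 29.4, 82.3 and 52.3 CPM in WT libraries. Among markers of other cells, the 4 cardiomyocyte markers summed to 0.68, 12.8 and 1.91 CPM in Ts1Cje replicates 1 to 3, against 60.3, 2.06 and 2.4 CPM in WT replicates 1 to 3. The 4 epithelial markers summed to 6.39, 7.37 and 4.53 CPM in Ts1Cje libraries, against 19.7, 0 and 0.15 CPM in WT libraries. In bulk RNA, fewer cells of a type and less RNA per cell cannot be told apart.

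All 34 members passed the filter on low counts, and 0 of 34 passed the genotype test in either direction. Over all 13821 genes tested, 0.00724% were called higher and 0% lower in Ts1Cje by edgeR at an adjusted p under 0.05. At an unadjusted p under 0.05 the Ts1Cje libraries were lower in 5 of 34 members (14.7%, against 2.8% of all genes), which were Egln3, Adm, Vegfa, Pdk1 and Gapdh, and higher in 1 of 34 (2.94%, against 2.99%), Bhlhe40. The log2 fold change was negative in 23 of 34 members (67.6%, against 50.8%) and positive in 11. The members' median was -0.20, against -0.01 over all genes tested. Without WT replicate 2 the median was 0.11, and without WT replicate 1 it was -0.39. Groups did not overlap for 1 member, Pdk1, lower in Ts1Cje (2.94%, against 5.72%), and for 0 members higher in Ts1Cje (against 6.38%).

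The members spread widely among the WT libraries. The highest of the 6 libraries was WT replicate 2 for 24 of 34 members (70.6%, against 16.2% of all genes tested). It was at least 1.5 times the median of the other 5 libraries for 22 of 34 (64.7%, against 14.2%). WT replicate 1 was the lowest for 17 of 34 (50%, against 25.8%), and at most 1 in 1.5 of the median of the other 5 for 16 of 34 (47.1%, against 19.1%). The log2 range of the WT libraries was wider than that of the Ts1Cje libraries for 30 of 34 (88.2%, against 64.3%). It was wider than the fold change between genotypes for 33 of 34 (97.1%, against 86.8%), with Adm the exception. The members' median deviation from the mean of the 6 libraries was -0.05, -0.22 and 0.05 on the log2 scale in Ts1Cje replicates 1 to 3, against -0.32, 0.62 and -0.06 in WT replicates 1 to 3. Over all genes tested these medians lay between 0.01 and 0.02 in every library.

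**Figure D1:**
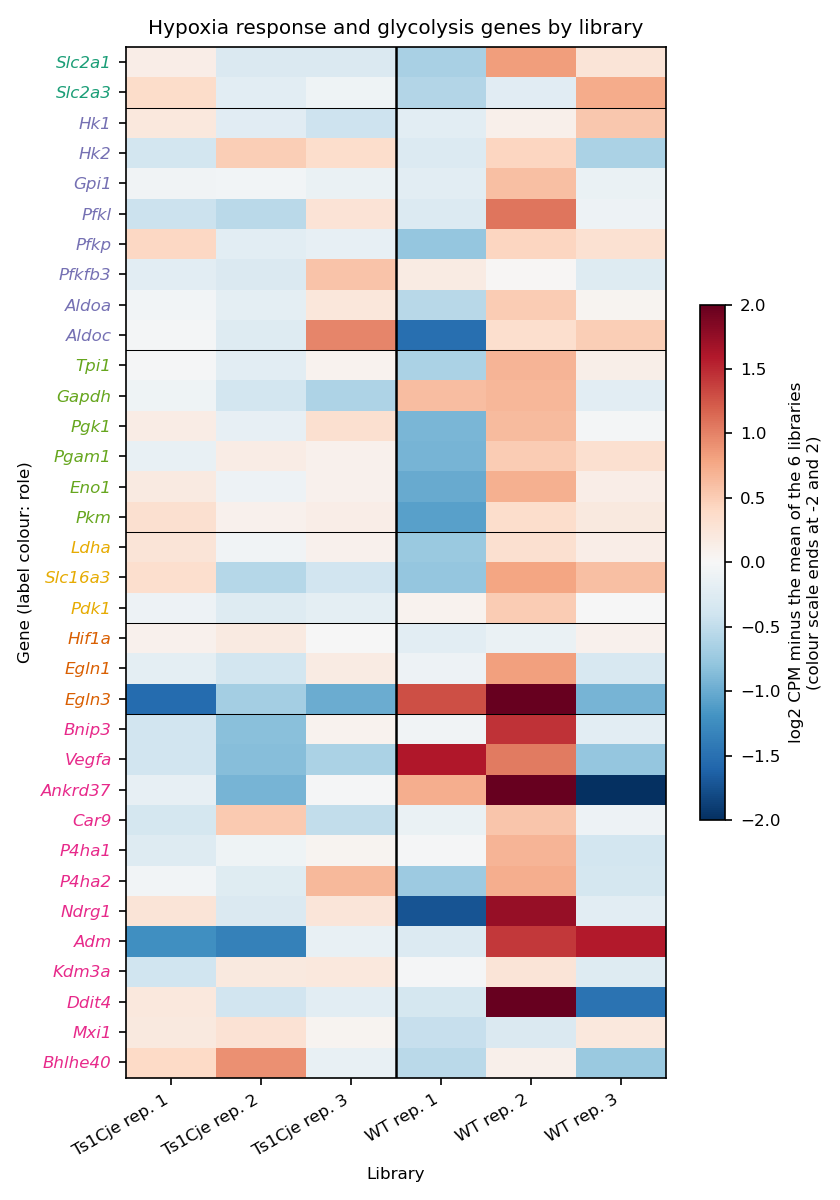
Heat map of the 34 genes (rows, label colour by role) in the 3 Ts1Cje and 3 WT libraries (columns). Colour is log2(CPM + 0.1) minus the mean of the 6 libraries, with the scale ending at -2 and 2. WT replicate 2 is the highest library for 24 of 34 genes, and WT replicate 1 the lowest for 17.

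In TPM, all 34 members together held 5996, 5341 and 5566 TPM in Ts1Cje replicates 1 to 3, against 3311, 7961 and 6022 TPM in WT replicates 1 to 3. The 16 genes from glucose entry to Pkm held 4424, 4007 and 4239 TPM in Ts1Cje replicates 1 to 3, against 2362, 6015 and 4572 TPM in WT replicates 1 to 3. The 3 Ts1Cje sums thus lay inside the range of the WT sums. Aldoa (mean of 6 libraries 1135 TPM), Ldha (968 TPM) and Pkm (766 TPM) had the highest TPM of the members. Adm (2.86 TPM), Ddit4 (2.04 TPM) and Ankrd37 (3.09 TPM) were at the low end.

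Glucose enters through Slc2a1 and Slc2a3, the facilitated transporters GLUT1 and GLUT3. Slc2a1 was at 69.6, 51.8 and 51.4 CPM in Ts1Cje replicates 1 to 3, against 40.2, 113 and 75.4 CPM in WT replicates 1 to 3. The Ts1Cje libraries lay between the lowest and the highest WT library. The edgeR log2 fold change was -0.40 ± 0.35 (SE; adjusted p = 0.837), and -0.01 without WT replicate 2. Slc2a3 was at 50.2, 33.5 and 36.5 CPM in Ts1Cje libraries, against 25.8, 33.2 and 64.7 CPM in WT libraries. Here WT replicate 3 was the highest and WT replicate 2 stood near the Ts1Cje libraries, with a log2 fold change of -0.04 ± 0.35 (SE).

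The hexose steps trap glucose, rearrange it and split it. Hk1 and Hk2 encode hexokinases, which phosphorylate glucose. Hk1 was at 90.1, 66.7 and 58.7 CPM in Ts1Cje libraries, against 67.7, 83.9 and 114 CPM in WT libraries. Hk2, the hexokinase that HIF induces, was at 46, 83.3 and 75.9 CPM in Ts1Cje libraries, against 49.4, 79.8 and 38.5 CPM in WT libraries. Both overlapped between genotypes, and WT replicate 3 was the highest for Hk1 and the lowest for Hk2. Gpi1, glucose-6-phosphate isomerase, was at 294, 298 and 280 CPM in Ts1Cje libraries, against 266, 468 and 283 CPM in WT libraries. Of these 6 values, 5 were close together and WT replicate 2 was 1.57 times the next highest. Pfkl and Pfkp encode the liver and platelet types of phosphofructokinase, the committed step. Pfkl was at 48.4, 45.3 and 79.5 CPM in Ts1Cje libraries, against 54, 138 and 61.2 CPM in WT libraries, with a log2 fold change of -0.55 ± 0.39 (SE; edgeR adjusted p = 0.82) that was -0.01 without WT replicate 2. Pfkp was at 155, 101 and 104 CPM in Ts1Cje libraries, against 67.9, 158 and 145 CPM in WT libraries. Its transcribed region overlaps Pitrm1 by 748 bases on the other strand, and no source used here says if counting kept strands apart. Pfkfb3 makes fructose-2,6-bisphosphate, an activator of phosphofructokinase. It was at 31.4, 29.8 and 53.9 CPM in Ts1Cje libraries, against 40.9, 36.8 and 30.3 CPM in WT libraries, and its highest library was Ts1Cje replicate 3.

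Aldolases split the hexose into trioses. Aldoa was at 1043, 946 and 1263 CPM in Ts1Cje libraries, against 731, 1540 and 1116 CPM in WT libraries. Aldoc was at 48.4, 41.5 and 98.6 CPM in Ts1Cje libraries, against 17.4, 63.3 and 70.6 CPM in WT libraries. WT replicate 1 was the lowest for both. Its Aldoc level was 0.276 times the median of the other 5 libraries, while its Hk1 and Gpi1 levels were 0.807 and 0.907 times that median. A second gene row named Aldoa, with 41 counts in all 6 libraries together, was not tested. The 8 genes of the hexose steps had log2 fold changes from -0.55 (Pfkl) to 0.32 ± 0.53 (Aldoc), with 0 of 8 at an unadjusted edgeR p under 0.05.

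The triose steps yield ATP and NADH. For 6 of their 6 genes WT replicate 2 was the highest (against 16.2% of all genes tested). For 5 WT replicate 1 was the lowest (against 25.8%), with Gapdh the exception. The median log2 deviation of the 6 genes was 0.06, -0.13 and 0.08 in Ts1Cje replicates 1 to 3, against -0.92, 0.65 and 0.12 in WT replicates 1 to 3. Tpi1, triosephosphate isomerase, was at 433, 380 and 463 CPM in Ts1Cje libraries, against 286, 711 and 478 CPM in WT libraries. Pgk1, phosphoglycerate kinase, was at 352, 283 and 398 CPM in Ts1Cje libraries, against 168, 492 and 310 CPM in WT libraries. Pgam1, phosphoglycerate mutase, was at 311, 384 and 368 CPM in Ts1Cje libraries, against 182, 493 and 433 CPM in WT libraries. In each of these, all 3 Ts1Cje libraries lay inside the WT range. Pgam1 lies on chromosome 19, where 400 genes had a mean log2 CPM above 1. Their median log2 deviation was -0.19, 0.12 and -0.01 in Ts1Cje replicates 1 to 3, against -0.14, -0.00 and 0.28 in WT replicates 1 to 3. On the other chromosomes that hold members these medians lay between -0.06 and 0.07. The part of this shift in the level of Pgam1 was not tested. Eno1, the ubiquitous enolase, was at 904, 748 and 844 CPM in Ts1Cje libraries, against 398, 1312 and 872 CPM in WT libraries. Pkm, pyruvate kinase of most tissues, was at 1515, 1289 and 1333 CPM in Ts1Cje libraries, against 572, 1559 and 1401 CPM in WT libraries. For Pkm the 5 libraries other than WT replicate 1 lay close together, and WT replicate 1 was 0.409 times their median. The log2 fold changes of these 5 genes ran from -0.21 (Tpi1) to 0.23 (Pkm), with the smallest unadjusted edgeR p at 0.513. Without WT replicate 2 they ran from 0.14 (Tpi1) to 0.52 (Pgk1), and without WT replicate 1 from -0.49 (Tpi1) to -0.11 (Pkm).

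Gapdh, glyceraldehyde-3-phosphate dehydrogenase, is normally among the most abundant transcripts of a cell. Here it had 203, 133 and 121 counts in Ts1Cje libraries, against 243, 272 and 146 counts in WT libraries, a mean of 4.89 TPM. Of the 50-base stretches in its longest annotated transcript, 27.8% recur in transcripts of 218 other genes, the most genes for any member. Only that transcript, of 3289 bases, was examined, so the share in any shorter form is not known. No source used here says how reads with several positions were counted, so its level is uncertain. Its log2 fold change was -0.76 ± 0.32 (SE; edgeR adjusted p = 0.792). Other members also share sequence with other genes, among them Eno1 (72.2% of such stretches), Pgk1 (68%), Bnip3 (62.4%), Pgam1 (41.5%) and Pkm (34.4%). Egln3, Ddit4, Adm, Pdk1, Hk2, Pfkp, P4ha1, P4ha2 and Kdm3a share 0%.

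**Figure D2:**
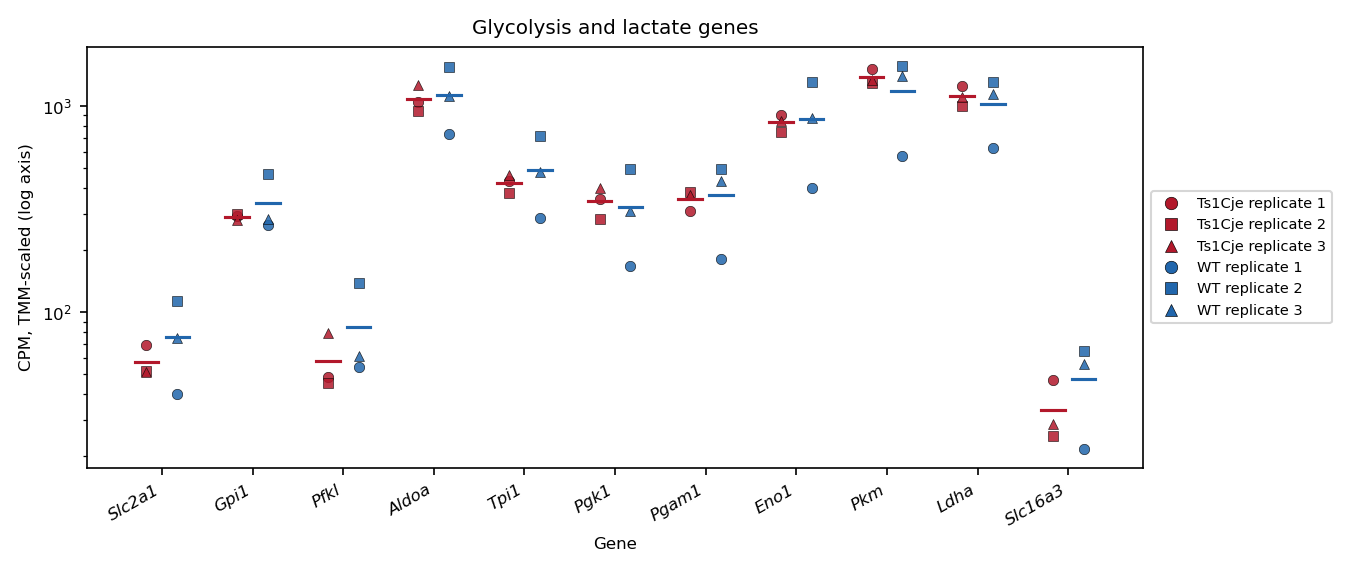
Level of 11 glycolysis and lactate genes in each library (CPM on a log axis). Points are libraries, Ts1Cje left of WT for each gene, and the horizontal line is the mean of 3 libraries. For Tpi1, Pgk1, Pgam1 and Eno1 the Ts1Cje points sit between WT replicate 1 (lowest) and WT replicate 2 (highest), as for Pkm.

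After glycolysis, Ldha turns pyruvate to lactate and Slc16a3, the monocarboxylate transporter MCT4, exports it. Ldha was at 1251, 996 and 1104 CPM in Ts1Cje libraries, against 622, 1306 and 1137 CPM in WT libraries. Slc16a3 was at 47.1, 25 and 28.6 CPM in Ts1Cje libraries, against 21.8, 64.6 and 56.3 CPM in WT libraries. WT replicate 1 was the lowest and WT replicate 2 the highest for both. The log2 fold changes were 0.13 ± 0.28 for Ldha and -0.50 ± 0.41 for Slc16a3 (SE), with edgeR adjusted p of 0.936 and 0.833. The Slc16a3 value was -0.86 without WT replicate 1 and -0.23 without WT replicate 2. Slc16a3 overlaps Csnk1d by 1879 bases on the other strand. Pdk1, the kinase that keeps pyruvate out of the mitochondrion by inhibiting pyruvate dehydrogenase, lies at chr2:71873224-71903858 (mm10). It was at 91.9, 82.6 and 86 CPM in Ts1Cje libraries, against 104, 140 and 97.8 CPM in WT libraries. All 3 Ts1Cje libraries were below all 3 WT libraries, and WT replicate 1 was not low here. Pdk1 averaged 86.8 ± 4.72 CPM in Ts1Cje and 114 ± 22.9 CPM in WT libraries (SD, n = 3 each), a log2 fold change of -0.39 ± 0.17 (SE; edgeR adjusted p = 0.792). Without WT replicate 2 it was -0.22.

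Among the genes of oxygen sensing, Hif1a (chr12:73901375-73947530), whose protein the sensors act on, was nearly level. It was at 133, 142 and 125 CPM in Ts1Cje libraries, against 108, 115 and 134 CPM in WT libraries, with a highest to lowest ratio of 1.32. Its log2 fold change was 0.16 ± 0.14 (SE; edgeR adjusted p = 0.835), and WT replicate 2 was below the median of the other 5. Egln1, the main prolyl hydroxylase in normal oxygen, was at 5.71, 5.06 and 7.37 CPM in Ts1Cje libraries, against 6.11, 11.6 and 5.26 CPM in WT libraries. Its WT replicate 2 level was 2.04 times the median of the others, and its log2 fold change was -0.34 ± 0.36 (SE; edgeR adjusted p = 0.864).

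Egln3, a prolyl hydroxylase that HIF itself induces, lies at chr12:54178981-54203860. It was at 0.947, 1.79 and 1.43 CPM in Ts1Cje libraries, against 7.28, 21.8 and 1.5 CPM in WT libraries. The counts behind these were 32, 48 and 42 in Ts1Cje libraries, against 180, 584 and 40 in WT libraries. All 3 Ts1Cje libraries were low, but WT replicate 3 was as low, so the groups overlapped. The log2 fold change was -2.88 ± 0.86 (SE), with an unadjusted p of 0.0111 and an adjusted p of 0.792 in edgeR. DESeq2 gave -2.88 with an adjusted p of 0.0483, the only member it called (2.94%, against 0.174% of all genes called lower by DESeq2). Without WT replicate 2 the edgeR value was -1.67, and without WT replicate 3 it was -3.39 with an adjusted p of 0.1.

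Among the effectors induced in low oxygen, WT replicate 2 again led. It was the highest for 8 of 12 (against 16.2% of all genes tested) and at least 1.5 times the median of the others for 9 (against 14.2%). The median log2 deviation of the 12 genes was -0.20, -0.27 and 0.02 in Ts1Cje replicates 1 to 3, against -0.20, 0.88 and -0.30 in WT replicates 1 to 3. Bnip3, a mitochondrial protein of mitophagy and cell death, was at 52.2, 38 and 71.3 CPM in Ts1Cje libraries, against 64.7, 186 and 58.7 CPM in WT libraries. Its 5 lower libraries mixed both genotypes, and the log2 fold change of -0.94 ± 0.46 (SE; edgeR adjusted p = 0.792) was -0.21 without WT replicate 2. Ndrg1, a stress-responsive gene that HIF and N-myc act on, was at 6.95, 4.73 and 6.89 CPM in Ts1Cje libraries, against 1.7, 19.7 and 5 CPM in WT libraries. WT held both its lowest and its highest library, and its log2 fold change of -0.51 ± 0.76 (SE; edgeR adjusted p = 0.905) was 0.87 without WT replicate 2.

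Ankrd37 encodes an ankyrin repeat protein and is a known HIF target. Its counts were 28, 12 and 27 in Ts1Cje libraries, against 40, 150 and 4 in WT libraries, or 0.828, 0.447 and 0.921 CPM against 1.62, 5.61 and 0.15 CPM. Ddit4 (REDD1), an inhibitor of mTOR complex 1 under stress, had 32, 16 and 20 counts in Ts1Cje libraries, against 15, 110 and 6 in WT libraries, or 0.947, 0.596 and 0.682 CPM against 0.607, 4.11 and 0.225 CPM. For both, WT replicate 2 was the highest and WT replicate 3 the lowest, with the Ts1Cje libraries between. Ankrd37 had a log2 fold change of -1.74 ± 1.05 (SE; edgeR adjusted p = 0.805) that was -0.28 without WT replicate 2. Ddit4 had -1.15 ± 1.0 (SE; edgeR adjusted p = 0.838), and 0.82 without WT replicate 2. Ankrd37 overlaps Ufsp2 by 57 bases on the other strand, and Ufsp2 had up to 2326 counts in a library.

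A pair of secreted factors had low levels in all 3 Ts1Cje libraries. Vegfa, which encodes a growth factor for blood vessels, lies at chr17:46016993-46032369. It was at 3.99, 2.83 and 3.31 CPM in Ts1Cje libraries, against 16.1, 10.8 and 3.01 CPM in WT libraries. WT replicates 1 and 2 were high and WT replicate 3 stood among the Ts1Cje libraries. The log2 fold change was -1.56 ± 0.56 (SE), with an unadjusted p of 0.0247 and an adjusted p of 0.792 in edgeR. It was -1.04 without WT replicate 1, -1.51 without WT replicate 2 and -1.98 without WT replicate 3, the last with an adjusted p of 0.0949.

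Adm, adrenomedullin, a peptide that widens blood vessels, lies at chr7:110627661-110629820. Its counts were 14, 10 and 29 in Ts1Cje libraries, against 22, 83 and 93 in WT libraries, or 0.414, 0.372 and 0.989 CPM against 0.89, 3.1 and 3.49 CPM. The overlap was between Ts1Cje replicate 3 and WT replicate 1. The log2 fold change was -2.07 ± 0.70 (SE), with an unadjusted p of 0.0196 and an adjusted p of 0.792 in edgeR. Leaving out each library in turn gave -2.66 to -1.75. The lowest WT library was replicate 1 for Adm, and replicate 3 for Egln3, Ankrd37 and Vegfa.

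**Figure D3:**
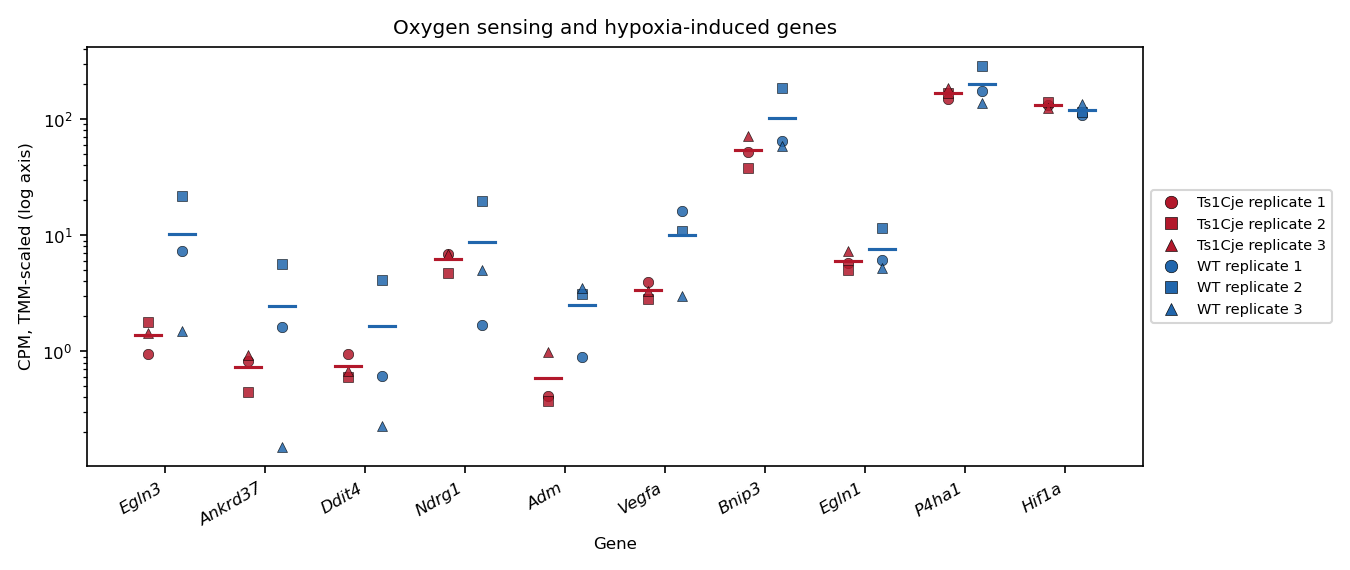
Level of 10 oxygen sensing and hypoxia-induced genes in each library (CPM on a log axis). Points are libraries, Ts1Cje left of WT for each gene, and the horizontal line is the mean of 3 libraries. WT replicate 2 tops Egln3 (21.8), Ankrd37 (5.61), Ddit4 (4.11), Ndrg1 (19.7), Bnip3 (186), Egln1 (11.6) and P4ha1 (287), while Hif1a spans only 108 to 142.

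The remaining effectors varied less. P4ha1 and P4ha2 encode subunits of the collagen prolyl hydroxylases. P4ha1 was at 150, 169 and 185 CPM in Ts1Cje libraries, against 176, 287 and 138 CPM in WT libraries. P4ha2 was at 9.67, 8.45 and 15.9 CPM in Ts1Cje libraries, against 6.03, 16.7 and 7.89 CPM in WT libraries. Both overlapped between genotypes with WT replicate 2 on top, and their log2 fold changes were -0.25 ± 0.26 and 0.15 ± 0.43 (SE). Car9, a carbonic anhydrase at the cell surface, was at 4.67, 8.56 and 4.19 CPM in Ts1Cje libraries, against 5.42, 8.79 and 5.56 CPM in WT libraries. Kdm3a, a histone demethylase, was at 63.9, 96.3 and 97.9 CPM in Ts1Cje libraries, against 83.1, 101 and 70.6 CPM in WT libraries. Both genotypes held high and low libraries for each of them, and their log2 fold changes were -0.18 ± 0.37 and 0.02 ± 0.21 (SE). Mxi1, an antagonist of Myc, was at 35.4, 37.8 and 31.9 CPM in Ts1Cje libraries, against 22.3, 25.3 and 35.7 CPM in WT libraries. Its WT replicate 2 level was 0.715 times the median of the others, the lowest such ratio of the 34 members, and its log2 fold change was 0.33 ± 0.21 (SE; edgeR adjusted p = 0.807). Mxi1, like Pgam1, lies on chromosome 19, whose shift between libraries is given above. Bhlhe40, a transcriptional repressor of the circadian and hypoxia responses, was at 26.3, 37.5 and 18 CPM in Ts1Cje libraries, against 13.7, 21.3 and 11.8 CPM in WT libraries. Only Ts1Cje replicate 3 and WT replicate 2 overlapped, and the log2 fold change was 0.81 ± 0.33 (SE), with an unadjusted p of 0.042 and an adjusted p of 0.792 in edgeR.

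**Figure D4:**
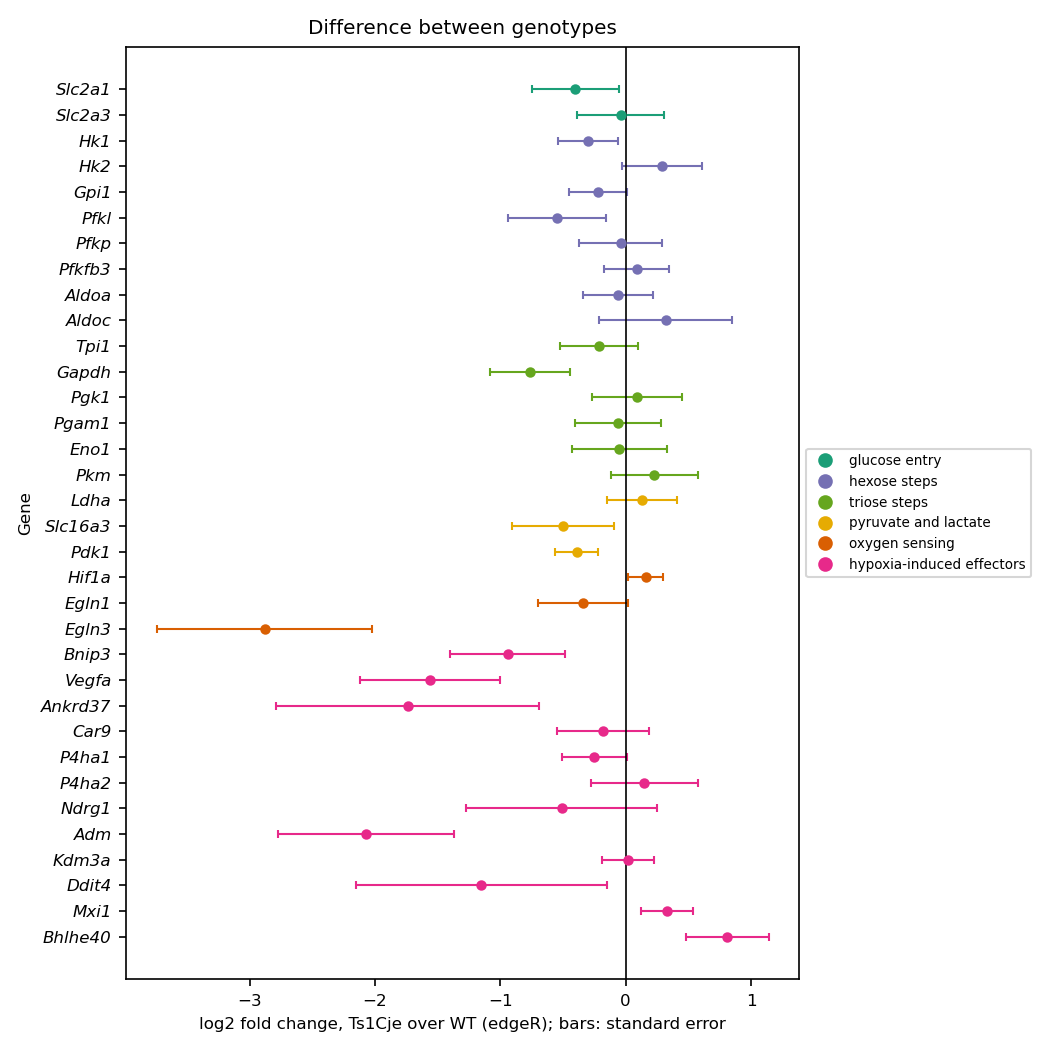
Log2 fold change of each of the 34 genes, Ts1Cje over WT, from edgeR (x axis), with bars for the standard error and colour for the role. Egln3 (-2.88), Adm (-2.07), Ankrd37 (-1.74) and Vegfa (-1.56) lie farthest to the left and Bhlhe40 (0.81) farthest to the right, and 0 of 34 passed the test.

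WT replicates 1 and 2 thus differed in both sets of members, but not in the same pattern. In WT replicate 1, 10 of the 16 genes from glucose entry to Pkm were at most 1 in 1.5 of the median of the others. So were 4 of the 12 effectors, against 19.1% of all genes tested. Egln3 and Vegfa were 4.85 and 4.87 times that median in the same library, and Ankrd37 1.95 times. In WT replicate 2, 9 of the 16 genes and 9 of the 12 effectors were at least 1.5 times the median of the others (against 14.2%). Egln3 was 14.5 times, Ddit4 6.78 times and Ankrd37 6.77 times that median. WT replicate 1 was also the library with the lowest G2/M sum and the highest cardiomyocyte and epithelial sums given above. The part of these in the members' levels was not tested.

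**Figure D5:**
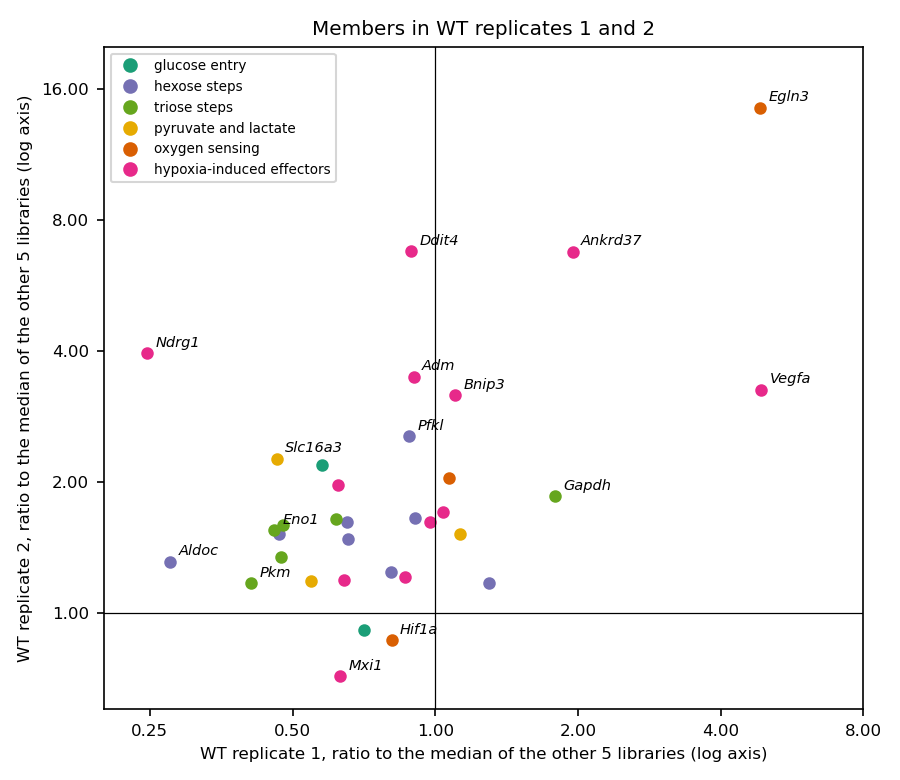
Each of the 34 genes by its CPM in WT replicate 1 (x axis) and in WT replicate 2 (y axis), both as a ratio to the median of the other 5 libraries, on log axes, with colour for the role. Egln3 (4.85 and 14.5) and Vegfa (4.87 and 3.26) lie high in both, while Pkm (0.409 and 1.17) and Ndrg1 (0.247 and 3.95) lie low in WT replicate 1 and above 1 in WT replicate 2.

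Other genes of the pathway, taken by list, were read from the same edgeR fit, where 0 of them passed the threshold. Over all 13821 genes tested, 800 had an unadjusted p under 0.05 in that fit, the background for the counts by list below. Groups did not overlap for 6.38% of all genes tested with Ts1Cje higher, and for 5.72% with Ts1Cje lower. Of 16 HIF pathway regulators, all tested, 7 had a positive and 9 a negative log2 fold change (median -0.03), 2 with an unadjusted p under 0.05. Eloc, elongin C of the VHL ubiquitin ligase, was at 97.3, 94.1 and 91.8 CPM in Ts1Cje libraries, against 70.8, 77.9 and 78.2 CPM in WT libraries, without overlap (log2 fold change 0.32 ± 0.12, SE). Groups also did not overlap for 1 of the 16 with Ts1Cje lower. Hif3a, a HIF alpha subunit that can act as an inhibitor, was at 1.6, 1.49 and 1.43 CPM in Ts1Cje libraries, against 1.46, 27.7 and 1.84 CPM in WT libraries. Its log2 fold change of -2.78 ± 1.10 (SE; edgeR adjusted p = 0.792) thus came with a single high library, WT replicate 2. Hif1an, the asparaginyl hydroxylase FIH, had a log2 fold change of -0.27 ± 0.20 (SE), and Arnt2, a HIF partner, 0.70 ± 0.53 (SE).

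Of 25 other hypoxia response genes, 19 were tested, 8 positive and 11 negative (median -0.12), with 1 at an unadjusted p under 0.05. That gene was Insig2, a regulator of cholesterol synthesis, at 64.5, 61.3 and 68.6 CPM in Ts1Cje libraries, against 40.5, 47.2 and 57.4 CPM in WT libraries. The next by p were Hmox1, heme oxygenase (log2 fold change 0.91 ± 0.40, SE), Bnip3l, a relative of Bnip3 (-0.25 ± 0.14), and Pfkfb4 (0.30 ± 0.20). Groups did not overlap for Insig2, with Ts1Cje higher, and for Bnip3l, with Ts1Cje lower. For 6 of these 19 the highest library was WT replicate 2, against 16.2% of all genes tested.

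Of 24 other glycolysis and lactate genes, 17 were tested, 9 positive and 8 negative (median 0.01), with 1 at an unadjusted p under 0.05, Pgam2. Pgam2, the muscle phosphoglycerate mutase, was at 8.76, 9.98 and 14.3 CPM in Ts1Cje libraries, against 4.49, 3.93 and 7.89 CPM in WT libraries (1.02 ± 0.35, SE), without overlap. Eno3, the muscle enolase, was at 4.91, 4.1 and 4.77 CPM in Ts1Cje libraries, against 11.5, 5.53 and 6.05 CPM in WT libraries (-0.74 ± 0.35). Its groups did not overlap either, with Ts1Cje lower. Tigar, a fructose-2,6-bisphosphatase, had 0.48 ± 0.28 and Slc16a7, the transporter MCT2, -0.44 ± 0.27. The highest library was WT replicate 2 for 2 of the 17, against 16.2% of all genes tested.

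Of 12 genes for pyruvate entry into mitochondria, 11 were tested, 7 positive and 4 negative (median 0.09), with 1 at an unadjusted p under 0.05, Dlat. Dlat and Dld, subunits of pyruvate dehydrogenase, had 0.35 ± 0.14 and 0.21 ± 0.12 (SE) and groups that did not overlap, with Ts1Cje higher. Groups did not overlap with Ts1Cje lower for 0 of the 11. Pdp2, the phosphatase that opposes Pdk1, had 0.37 ± 0.26, and Mpc2, a subunit of the mitochondrial pyruvate carrier, -0.22 ± 0.15. All 7 pentose phosphate genes were tested and positive (median 0.23), with 1 at an unadjusted p under 0.05, Rpe. The median was 0.07 without WT replicate 1 and 0.38 without WT replicate 3. Rpe, a pentose phosphate epimerase, had 0.34 ± 0.13, G6pdx, the entry enzyme, 0.38 ± 0.30, Tkt, transketolase, 0.23 ± 0.21 and Pgd 0.25 ± 0.27. Groups did not overlap for Rpe alone, with Ts1Cje higher. G6pdx was at 201, 191 and 207 CPM in Ts1Cje libraries, against 95.6, 130 and 234 CPM in WT libraries. The highest library was WT replicate 2 for 0 of the 7 (against 16.2% of all genes tested), and WT replicate 1 the lowest for 5 (against 25.8%).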

How the data were processed

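RNA of 6 libraries (3 Ts1Cje, 3 WT) was sequenced after SMART-seq HT Plus preparation, per the labels' protocols. Per the submitters' processing notes, the tools were FastQC 0.11.7, Trimmomatic 0.38, HISAT2 2.1.0 and featureCounts 1.6.3, with build mm10. The authors deposited raw counts per gene and TPM per gene. The deposited TPM equal the counts divided by 1 length per gene and rescaled to a common sum, as checked on the 11102 genes with 20 or more counts in every library. Settings for strand and for reads with several positions are not given in the sources used here. Counts of reads without molecular identifiers are not independent molecules.

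The 34 members matched 35 rows of the tables by symbol, each with the coordinates of GENCODE M21. Counts were compared with the edgeR 4.0.16 quasi-likelihood test (R 4.3.3) between genotypes with no other term, TMM factors, and filterByExpr (count minimum 10, total minimum 15). Adjusted p is Benjamini-Hochberg over all 13821 genes tested, with a threshold of 0.05. The standard error is the log2 fold change divided by the root of F. CPM are TMM-scaled, and log2 CPM used a prior count of 2. Shared 50-base stretches were counted from the longest GENCODE transcript of each member. Alternatives were RLE factors, no filter, a count minimum of 30, DESeq2 1.42.0, limma 3.58.1 (voom, and log2(TPM + 1) or log2(TPM + 0.1)), Eno1 summed with Eno1b, a block for the replicate number, and leaving out each library.

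All 34 members are named, with up to 4 genes of smallest p from each pathway list. Markers and the G2/M list are given as sums, and a few markers also singly. Members and lists were chosen with earlier results of these data known.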

Additional observations from a re-analysis of the deposited data

How the results depend on the processing

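Among 474 log2 fold changes of members under alternatives, 54 changed sign and 1 passed the threshold, and 15 of the 34 members kept their sign under all that were run. Ankrd37, Adm and Ddit4 were not tested at the stricter count minimum. The call was 0 members except with DESeq2, which called 1 member (Egln3) and 56 genes in all, against 1 gene with edgeR. Without a filter 3 genes were called. Deviations of same-numbered replicates from their genotype means had correlations across genes of -0.18, -0.05 and -0.06. With groups of 3 these cannot show whether the genotypes shared lots. With the replicate number as a block, 0 genes were called, 634 at an unadjusted p under 0.05. Leaving out 1 library gave 1 to 6 called genes (6 without WT replicate 3), 0 to 3 members whose groups did not overlap with Ts1Cje higher (0% to 8.82%, against 9.78% to 18.6% of all genes) and 1 to 6 with Ts1Cje lower (2.94% to 17.6%, against 8.86% to 17.7% of all genes). The 6 (17.6%, against 9.57%) were without WT replicate 1, the 3 higher (8.82%, against 18.6%) without WT replicate 3. It gave list medians of -0.09 to 0.03 (HIF regulators), -0.23 to -0.01 (other hypoxia), -0.05 to 0.12 (other glycolysis), -0.05 to 0.16 (pyruvate entry) and 0.07 to 0.38 (pentose phosphate), and of -0.39 to 0.11 for the members. Members with a change of sign had these ranges when 1 library was left out: Slc2a3 -0.30 to 0.44, Gpi1 -0.38 to 0.07, Pfkp -0.34 to 0.16, Pfkfb3 -0.24 to 0.25, Aldoa -0.30 to 0.22, Aldoc -0.17 to 0.64, Tpi1 -0.49 to 0.14, Pgk1 -0.23 to 0.52, Pgam1 -0.39 to 0.20, Eno1 -0.40 to 0.38, Pkm -0.11 to 0.47, Ldha -0.14 to 0.34, Egln1 -0.55 to 0.08, Car9 -0.57 to 0.07, P4ha1 -0.46 to 0.09, P4ha2 -0.18 to 0.69, Ndrg1 -1.01 to 0.87, Kdm3a -0.09 to 0.20, Ddit4 -1.66 to 0.82. The 15 others had Slc2a1 -0.72 to -0.01, Hk1 -0.49 to -0.07, Hk2 0.09 to 0.63, Pfkl -0.85 to -0.01, Gapdh -0.99 to -0.61, Slc16a3 -0.86 to -0.23, Pdk1 -0.49 to -0.22, Hif1a 0.09 to 0.26, Egln3 -3.39 to -1.67, Bnip3 -1.21 to -0.21, Vegfa -1.98 to -1.04, Ankrd37 -2.29 to -0.28, Adm -2.66 to -1.75, Mxi1 0.19 to 0.56, Bhlhe40 0.51 to 1.09. Under limma-voom, log2(TPM + 1), log2(TPM + 0.1) and the replicate block, Slc2a3 was 0.05, 0.03, 0.04 and 0.04, Pfkp 0.02, 0.01, 0.02 and 0.01, Pgam1 0.07, 0.05, 0.05 and 0.06, and Eno1 0.11, 0.10, 0.10 and 0.10. Ndrg1 was 0.12 with limma-voom, 0.11 with log2(TPM + 0.1) and 0.17 with the block. The cause of these changes was not tested. With alternatives added after the data were seen (RLE factors, TPM, libraries left out), WT replicate 2 was the highest for 21 to 25 members and WT replicate 1 the lowest for 16 to 18. Low counts limit Ankrd37, Ddit4 and Adm, and groups of 3 limit every genotype comparison.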

Other observations

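The genes in which WT replicate 2 stood farthest above all other libraries were ranked after their values were seen, among 10356 genes with a mean of at least 3 CPM. F13a1, the A subunit of coagulation factor XIII, ranked 1. It was at 0.414, 1.04 and 0.205 CPM in Ts1Cje replicates 1 to 3, against 0.243, 166 and 1.65 CPM in WT replicates 1 to 3. Hif3a ranked 2 and Nupr1, a stress-induced nuclear protein, ranked 3, at 4.11, 5.47 and 4.13 CPM in Ts1Cje libraries, against 4.98, 34.1 and 3.68 CPM in WT libraries. Klf9 and Fkbp5, both known to respond to glucocorticoids, ranked 5 and 13. Phgdh (serine synthesis), Trib3 (a stress-induced pseudokinase) and Asns (asparagine synthesis) ranked 6, 7 and 11. Dnah2, Ptger2, Gm13431 and Tagap ranked 4, 8, 9 and 10. Asns was at 37.1, 50 and 22 CPM in Ts1Cje libraries, against 11.9, 147 and 31.3 CPM in WT libraries. Among the hypoxia and glycolysis genes, Egln3 ranked 12, Ndrg1 14 and Bnip3 15, and Pfkl, the next, 61. What set WT replicate 2 apart in these genes was not tested.

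WT replicate 2 was the highest library for 0 of the 10 macrophage markers, against 16.2% of all genes tested. With 10 genes this count cannot tell the markers from other genes. The median log2 deviation of the macrophage markers was 0.02, -0.06 and -0.01 in Ts1Cje replicates 1 to 3, against 0.27, 0.17 and -0.27 in WT replicates 1 to 3. Microglia markers (4) summed to 1548, 1743 and 1895 CPM in Ts1Cje libraries, against 2163, 1575 and 1345 CPM in WT libraries. The 4 mast cell and megakaryocyte markers summed to 145, 43.9 and 76.5 CPM in Ts1Cje libraries, against 34, 186 and 84.2 CPM in WT libraries. Nearly all of it was Pf4, at 144, 43.6 and 75.9 CPM in Ts1Cje libraries, against 34, 185 and 82.1 CPM in WT libraries. Itga2b, the other tested gene of that list, was at 0.71, 0.223 and 0.341 CPM in Ts1Cje libraries, against 0, 0.822 and 1.65 CPM in WT libraries, highest in WT replicate 3. The 4 endothelial markers summed to 56, 40.6 and 29.3 CPM in Ts1Cje libraries, against 13.3, 23.3 and 45.7 CPM in WT libraries. Mesenchymal markers (4) summed to 6.98, 54.1 and 9.45 CPM in Ts1Cje libraries, against 23.7, 6.5 and 11.8 CPM in WT libraries. Neural markers (4) summed to 72.8, 21.5 and 22.1 CPM in Ts1Cje libraries, against 40.9, 26.3 and 59.7 CPM in WT libraries. The highest sum in any library was 5.34 CPM for erythroid, 0.651 CPM for neutrophil and 0.592 CPM for pluripotent cell markers.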
